A study of Mus with 17 samples.

Results

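Macrophages of the aortic wall were followed through transcripts of genes that serve as their markers. The list held 5 Ensembl transcripts, given by identifier: Lyz2 (ENSMUST00000092163), Cd68 (ENSMUST00000018918), Cd14 (ENSMUST00000061829), Mrc1 (ENSMUST00000028045) and Csf1r (ENSMUST00000025523). Of the 39614 transcripts listed in every file, 4 were members, and all 4 passed the filter on low values. The Csf1r transcript was not analysed here. RNA came from the abdominal aorta of wild-type (WT) C57BL/6 mice, an inbred strain, after 42 days of treatment. The Control group (n = 5) received saline and double distilled water. The AngII group (n = 6) received angiotensin II, a hormone peptide with a vessel-constricting action, at 500 ng/kg/min, and double distilled water. The third group (n = 6) received the same dose of angiotensin II with neferine, an alkaloid of lotus seeds, at 1 mg/kg/day. The study asked which genes differ between these groups and how neferine acts on vessels exposed to angiotensin II. Neither the age of the mice nor whether each sample is a single animal is given in the labels, so the p-values reflect only how far these samples vary.

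Macrophages are phagocytes that live in the outer layer of the arterial wall and are joined by blood monocytes during inflammation. Angiotensin II infusion is widely used in mice to raise blood pressure, and monocytes and macrophages are known to gather in the aorta in that model. Lyz2 encodes lysozyme M, a secreted enzyme that cuts bacterial cell walls and is abundant in macrophages, monocytes and neutrophils. Cd68 encodes a glycoprotein of lysosomes and late endosomes that is widely used to stain macrophages. Cd14 encodes a membrane-anchored co-receptor for bacterial lipopolysaccharide that works with Toll-like receptors. Mrc1 encodes the mannose receptor, an endocytic receptor typical of resident and alternatively activated macrophages and found on some endothelial cells as well. Csf1r encodes the receptor through which the growth factors colony-stimulating factor 1 and interleukin 34 keep macrophages alive.

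Each library gave 1 abundance signal per transcript, on a scale that the files do not name. Column totals were 392615 to 569873, and depths estimated relative to AngII replicate 5 lay between 0.98 and 1.11, while the number of reads is unknown. Each estimate was the most common ratio among 116 to 310 low values, with 24.4% to 32.5% of them near it, so it is a rough guide. In bulk tissue, fewer cells of a type and less RNA per cell cannot be told apart. Because no table used here pairs the other transcripts with gene symbols, other macrophage genes and the defining markers of aorta and of other cell types were not checked. AngII replicate 6 stood apart from all other libraries, with a median Spearman rho across transcripts of 0.455 against 0.606 to 0.680 in the others and 16.4% of transcripts listed at 0 against 4.39% to 10.1%. In AngII replicate 2 and neferine replicate 1 the 10 highest transcripts took 31.0% and 29.0% of the signal. The neferine files form a set with partly different rows from the Control and AngII files. In any comparison with neferine, the drug and that set of files cannot be told apart.

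The Lyz2 transcript was lowest in Control, higher in AngII and highest with neferine, and no step of this order passed the test over all transcripts. In Control its signal was 170.5, 97.9, 169, 80.8 and 130.3 in replicates 1, 2, 4, 5 and 6, a mean of 129.6 ± 40.6 (SD, n = 5). In AngII it ran from 131 to 405 with a median of 183, and the mean was 215 ± 104 (SD, n = 6). With neferine it ran from 193 to 442 with a median of 295 and a mean of 305 ± 90.8 (SD, n = 6). All 6 neferine libraries lay above all 5 Control libraries, whereas the AngII libraries overlapped with both other groups. The highest AngII value, 405, belonged to replicate 6, and without that library the AngII mean was 178 ± 52.4 (SD, n = 5).

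Lyz2 differed between neferine and Control by a log2 fold change of 1.23 ± 0.30 (SE), a 2.35-fold difference with a 95% interval of 1.51 to 3.66 (limma, adjusted p = 0.18). Fold changes are given throughout on the log2(value + 1) scale. The two-sided exact permutation test gave p = 0.00433 before adjustment and 0.23 after it. AngII exceeded Control by 0.67 ± 0.30 (SE; limma, adjusted p = 0.68), and neferine exceeded AngII by 0.56 ± 0.29 (SE; limma, adjusted p = 0.952). Lyz2 has a close paralog, Lyz1, with 0 other genes starting between them in the RefSeq annotation of GRCm38.p6. How reads that fit both were assigned is not given in the sources used here, so the Lyz2 values are uncertain to that extent.

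**Figure D1:**
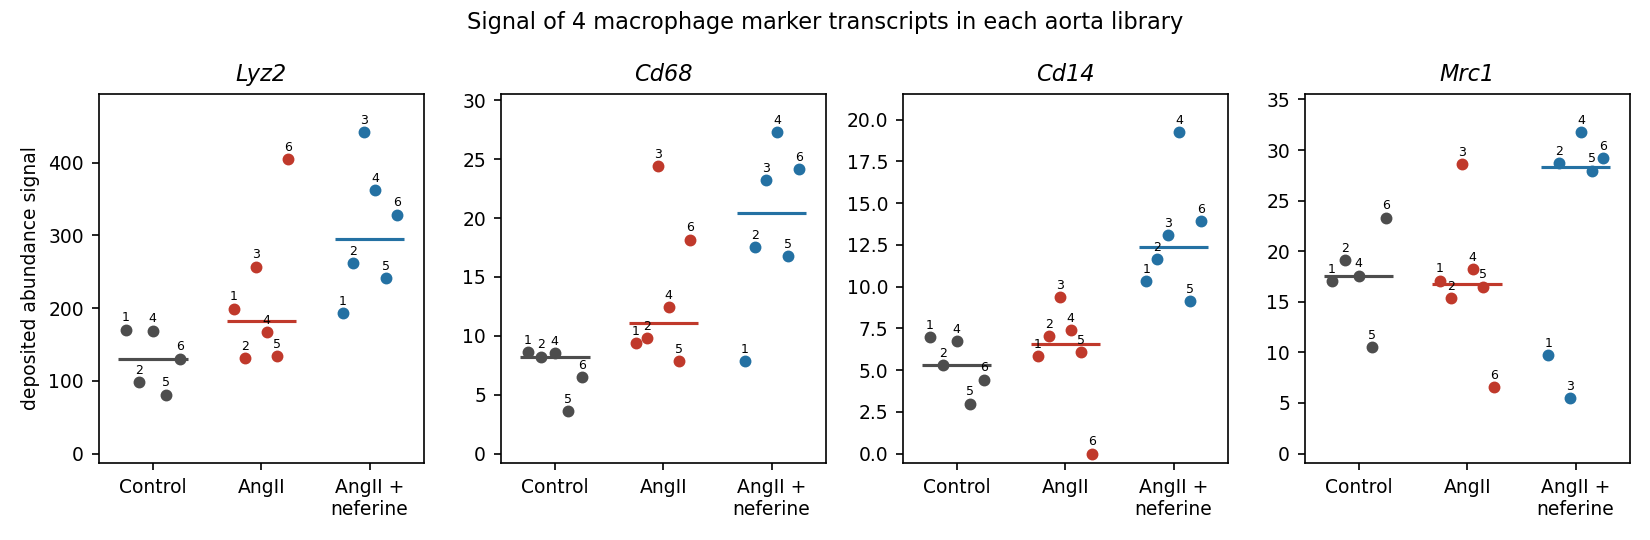
Deposited abundance signal (linear scale, vertical axis) of Lyz2, Cd68, Cd14 and Mrc1 in each of the 17 libraries, by group; points carry the replicate number and horizontal bars are group medians. All neferine points of Lyz2 and Cd14 lie above all Control points, and Mrc1 with neferine splits into 4 high and 2 low libraries.

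The Cd68 transcript followed the same order of groups as Lyz2. Its Control values were 8.64, 8.22, 8.50, 3.59 and 6.48 in replicates 1, 2, 4, 5 and 6, with a mean of 7.09 ± 2.14 (SD, n = 5). In AngII the values ran from 7.83 to 24.4 with a median of 11.1 and a mean of 13.7 ± 6.41 (SD, n = 6). With neferine they ran from 7.83 to 27.3 with a median of 20.4 and a mean of 19.5 ± 6.99 (SD, n = 6). Of the 6 AngII libraries 5 lay above every Control library, and so did 5 of the 6 neferine libraries. The exceptions were AngII replicate 5 and neferine replicate 1. The AngII group was uneven, with replicates 3 and 6 at 24.4 and 18.2 and the rest between 7.83 and 12.4.

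For Cd68 the log2 fold change between neferine and Control was 1.30 ± 0.33 (SE), a 2.46-fold difference with a 95% interval of 1.52 to 3.99 (limma, adjusted p = 0.193). The two-sided exact permutation p was 0.0108 before adjustment and 0.285 after it. AngII was above Control by 0.81 ± 0.33 (SE; limma, adjusted p = 0.672). Neferine was above AngII by 0.49 ± 0.31 (SE; limma, adjusted p = 0.952). None of the 3 differences passed.

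The Cd14 transcript had medians of 5.28 in Control, 6.55 in AngII and 12.4 with neferine, the same order of groups as Lyz2 and Cd68, with the larger step between AngII and neferine. Control values were 6.98, 5.28, 6.75, 2.99 and 4.43 in replicates 1, 2, 4, 5 and 6, a mean of 5.28 ± 1.66 (SD, n = 5). In AngII, replicates 1 to 5 were at 5.82, 7.04, 9.37, 7.38 and 6.05, and replicate 6 was listed at 0. With neferine the values ran from 9.13 to 19.3 with a mean of 12.9 ± 3.58 (SD, n = 6). Every neferine library exceeded every Control library, and 5 of the 6 exceeded every AngII library. The exception, neferine replicate 5 at 9.13, lay just under AngII replicate 3 at 9.37.

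Cd14 with neferine exceeded AngII by a log2 fold change of 1.25 ± 0.44 (SE), with a 95% interval of 0.32 to 2.19 (limma, adjusted p = 0.872). The two-sided exact permutation p was 0.00433 before adjustment and 0.846 after it. A part of this size came from the library listed at 0, since without AngII replicate 6 the difference was 0.75 ± 0.22 (SE; limma, adjusted p = 0.73). Against Control the neferine group was higher by 1.15 ± 0.46 (SE; limma, adjusted p = 0.458), and the exact permutation p of 0.00216 before adjustment, two-sided, was the smallest that 5 against 6 libraries can give (0.23 after adjustment). Without AngII replicate 6, which also widens the shared estimate of the spread, the same difference of 1.15 had an SE of 0.22 (limma, adjusted p = 0.0565). AngII and Control differed by -0.10 ± 0.46 (SE; limma, adjusted p = 0.97) with all libraries and by 0.40 ± 0.23 (SE; limma, adjusted p = 0.788) without AngII replicate 6, so the sign of that difference on the log2 scale rests on 1 library.

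The Mrc1 transcript did not differ between the groups beyond its spread, and its SD with neferine, 11.4, was above the 4.61 of Control, a difference that was not tested. Control values were 17.1, 19.1, 17.6, 10.52 and 23.3 in replicates 1, 2, 4, 5 and 6, a mean of 17.5 ± 4.61 (SD, n = 5). In AngII they ran from 6.57 to 28.6 with a median of 16.8 and a mean of 17.04 ± 7.03 (SD, n = 6). With neferine, replicates 2, 4, 5 and 6 were at 28.7, 31.8, 28.0 and 29.2, while replicates 1 and 3 were at 9.72 and 5.44. The neferine libraries therefore fell on both sides of Control, with 4 above every Control library and 2 below every one. The log2 fold changes were -0.10 ± 0.42 (SE; limma, adjusted p = 0.967) for AngII against Control, 0.23 ± 0.40 (SE; limma, adjusted p = 0.979) for neferine against AngII and 0.13 ± 0.42 (SE; limma, adjusted p = 0.957) for neferine against Control. The 95% interval of the last, -0.76 to 1.03, leaves room for a difference of 2.04-fold upward or for a level of 0.589 times Control, so similar levels were not shown. The AngII difference from Control changed sign, to 0.13 without AngII replicate 6 and to 0.006 without Control replicate 6. The neferine difference from Control did so too, to -0.03 without Control replicate 5 and -0.02 without neferine replicate 4.

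**Figure D2:**
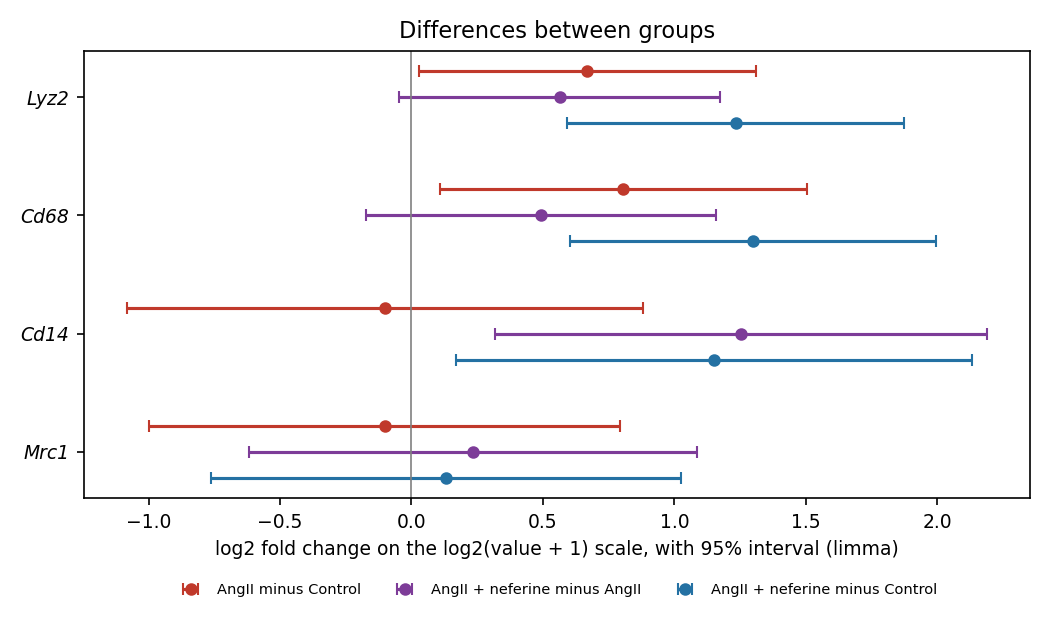
Log2 fold change between groups (horizontal axis, log2(value + 1) scale) for each of the 4 transcripts, from limma over all 17 libraries; bars are 95% intervals not adjusted for the number of transcripts tested. The neferine and Control intervals of Lyz2 (0.59 to 1.87) and Cd68 (0.60 to 1.997) lie farthest from 0, and the Mrc1 intervals all span 0.

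Between AngII and Control, limma called 0 of the 4 transcripts at an adjusted p under 0.05, and 0 of all 29983 transcripts tested (0%). At an unadjusted p under 0.05 it found Lyz2 and Cd68, both higher in AngII, where 7.25% of all transcripts passed that level and 3.31% did so upward. The exact permutation test found 1 at that level, Cd68, and called 0 after adjustment. Its smallest possible p was 0.00216 in each of the 3 comparisons. A call after adjustment therefore needs very many transcripts at that p, and the lack of calls says little. The share of all transcripts at an unadjusted exact p under 0.05 was not computed for any comparison. The median log2 fold change was 0.28 over the 4 transcripts and -0.03 over all transcripts. None of the 4 separated the 2 groups completely, which 0.32% of all transcripts did upward. Without AngII replicates 2 and 6 and neferine replicate 1, 0 of the 4 were called against 0.0142% of all transcripts, and 1 of the 4, Cd68, had an unadjusted p under 0.05, against 7.57% of all transcripts.

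Between neferine and AngII, limma again called 0 of the 4 and 0 of 29983 (0%). At an unadjusted p under 0.05 it found Cd14 only, higher with neferine, where 5.22% of all transcripts passed and 2.9% did so upward. The exact permutation test found the same 1 transcript and called 0 after adjustment. All 4 log2 fold changes were above 0, as were 49.5% of those of all transcripts, with a median of 0.53 against 0.00 over all transcripts. The 4 do not vary independently of each other, and that of Mrc1 was 0.004 without AngII replicate 6. None of the 4 separated the groups, as 0.163% of transcripts did upward. Without the 3 libraries just named, 3 of the 4 had an unadjusted p under 0.05, against 7.2% of all transcripts, and 0 were called, against 0.0462%. Lyz2 then exceeded AngII by 0.79 ± 0.26 (SE; limma, adjusted p = 0.552), Cd68 by 0.76 ± 0.31 (SE; limma, adjusted p = 0.633) and Cd14 by 0.80 ± 0.24 (SE; limma, adjusted p = 0.51).

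Between neferine and Control, limma called 0 of the 4 transcripts, against 11 of 29983 (0.0367%). Lyz2, Cd68 and Cd14 had an unadjusted p under 0.05 by limma and by the exact permutation test, all 3 higher with neferine, where limma found 8.74% of all transcripts at that level and 4.23% upward. Lyz2 and Cd14 separated the groups completely, as 0.917% of all transcripts did upward. The median of the 4 log2 fold changes was 1.19, against -0.03 over all transcripts. The calls depended on which libraries were kept. With only the 2 groups compared in the fit, the limma adjusted p was 0.124 for Lyz2, 0.175 for Cd68 and 0.122 for Cd14. Neferine replicate 1 had the lowest Lyz2 and Cd68 values of its group, so leaving it out also raises those differences. AngII replicates 2 and 6 are in neither group and enter only through the shared fit and filter. Without AngII replicates 2 and 6 and neferine replicate 1, limma called 3 of the 4, against 0.391% of all transcripts. The same 3 had an unadjusted p under 0.05, against 11.4%. Lyz2 was then higher than Control by 1.35 ± 0.25 (SE; limma, adjusted p = 0.0362), Cd68 by 1.52 ± 0.29 (SE; limma, adjusted p = 0.0435) and Cd14 by 1.20 ± 0.23 (SE; limma, adjusted p = 0.0435). With those libraries also left out and the signals rescaled by the median of ratios, only Lyz2 stayed past the threshold (limma, adjusted p = 0.0366), with Cd68 at 0.0502 and Cd14 at 0.0504. Mrc1 was not called in either fit. This comparison and that of AngII with Control share their Control libraries, and this comparison and that of neferine with AngII share the neferine libraries.

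The 4 transcripts did not vary alike from library to library. Lyz2 and Cd68 moved together, with a Pearson r of 0.895 on log2(value + 1) over 17 libraries (permutation p = 1e-05, the smallest that 100000 resamples can give; 6e-05 adjusted over 6 pairs) and a Spearman rho of 0.846 (permutation p = 8e-05, adjusted 0.00048). Within groups, on deviations from the group mean, r was 0.786 (permutation p = 0.00022, adjusted 0.00132) and rho 0.826 (permutation p = 9e-05, adjusted 0.00054). For every pair, these deviations were shuffled across groups, with no allowance for the group means taken out, so the within-group p-values may be too small. On the levels themselves, other libraries were also left out. Without the 2 libraries farthest from the median of Lyz2, Control replicate 5 and neferine replicate 3, r was still 0.849. Among 29982 other transcripts, Cd68 ranked 13 in its correlation with Lyz2, and Lyz2 ranked 12 in its correlation with Cd68.

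Cd14 varied with this pair in rank over all 17 libraries. By Pearson r, and within groups, it did so once AngII replicate 6 was left out. With that library included, where Cd14 was listed at 0 while Lyz2 was at 405, r with Lyz2 was 0.206 (permutation p = 0.443, adjusted 0.531) and rho 0.600 (permutation p = 0.0116, adjusted 0.0232). In the other 16 libraries r was 0.910 (permutation p = 1e-05, adjusted 2e-05) and rho 0.879 (permutation p = 5e-05, adjusted 0.00021), and r was 0.887 without the 2 farthest libraries. Within groups r was -0.284 over all 17 libraries (permutation p = 0.275, adjusted 0.414), with a rho of 0.208 (permutation p = 0.419, adjusted 0.503). In the 16 it was 0.734 (permutation p = 0.00139, adjusted 0.00278), with a rho of 0.729 (permutation p = 0.00194, adjusted 0.00388). Cd14 and Cd68 had an r of 0.374 over all 17 libraries (permutation p = 0.138, adjusted 0.276) and of 0.893 over these 16 (permutation p = 1e-05, adjusted 2e-05), with rho of 0.669 (permutation p = 0.00411, adjusted 0.0123) and 0.838 (permutation p = 0.00012, adjusted 0.00024). Within groups their r was 0.0818 over 17 libraries (permutation p = 0.755, adjusted 0.755) and 0.798 over the 16 (permutation p = 0.00028, adjusted 0.00084). The Pearson r of Cd14 with both, and its relation to both within groups, thus depend on leaving out that library. The rank correlations of levels were lower with it but did not depend on leaving it out. All such correlations share the scale of a library between both axes.

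**Figure D3:**
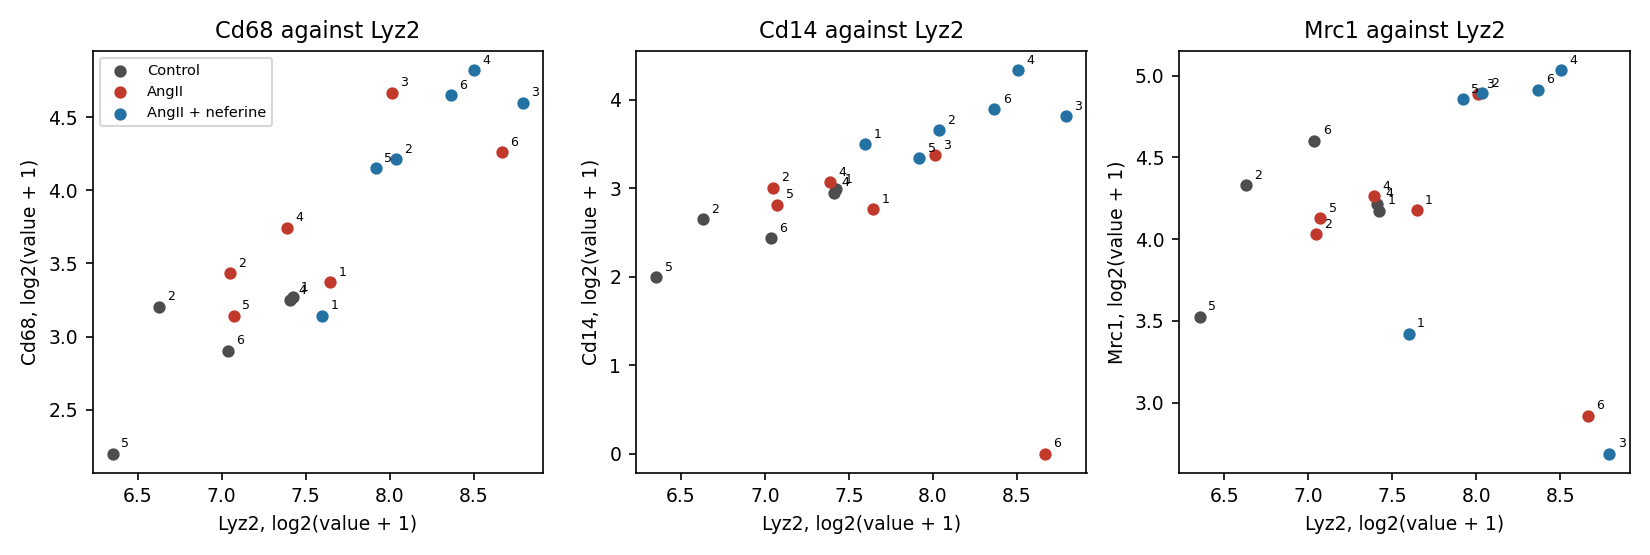
Cd68, Cd14 and Mrc1 (vertical axes) against Lyz2 (horizontal axes), all as log2(value + 1), for the 17 libraries, coloured by group and numbered by replicate. Cd68 is higher where Lyz2 is higher, as is Cd14 apart from AngII replicate 6 at 0, and Mrc1 is lowest in the libraries where Lyz2 is highest, AngII replicate 6 and neferine replicate 3.

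For Mrc1 and Lyz2, r was -0.057 over 17 libraries (permutation p = 0.826, adjusted 0.826) and rho 0.135 (permutation p = 0.604, adjusted 0.604), and no relation was detected. Without AngII replicate 6, r was 0.144 (permutation p = 0.596, adjusted 0.596) and rho 0.362 (permutation p = 0.169, adjusted 0.184), and r was 0.601, not tested, with the farthest libraries, neferine replicate 3 and Control replicate 5, left out too. Within groups r was -0.167 over 17 libraries (permutation p = 0.519, adjusted 0.623) and 0.134 without AngII replicate 6 (permutation p = 0.626, adjusted 0.626). With Control replicate 5 and neferine replicate 1 left out too, the within-group r was -0.194, not tested. Mrc1 and Cd68 had a rho of 0.402 over 17 libraries (permutation p = 0.112, adjusted 0.134) and an r of 0.241 (permutation p = 0.349, adjusted 0.524). Without AngII replicate 6 their rho was 0.553 (permutation p = 0.0291, adjusted 0.0436), and 0.591 within groups (permutation p = 0.0173, adjusted 0.026), while r was 0.379 (permutation p = 0.147, adjusted 0.221) and 0.461 within groups (permutation p = 0.0742, adjusted 0.111). Mrc1 and Cd14 had an r of 0.498 over 17 libraries (permutation p = 0.0429, adjusted 0.129), which was 0.237 without AngII replicate 6 (permutation p = 0.374, adjusted 0.449). The ratio of the Lyz2 to the Mrc1 signal within a library, which does not depend on how the library was scaled, shows which libraries part them. It lay between 5.13 and 9.99 in Control. In AngII it lay between 8.10 and 11.7 in replicates 1 to 5 and was 61.6 in replicate 6. With neferine it lay between 8.62 and 11.4 in replicates 2, 4, 5 and 6, and was 19.8 in replicate 1 and 81.2 in replicate 3. Thus 2 libraries of different treatment had several times the ratio of all others, with Lyz2 among the highest and Mrc1 the lowest of the series. Neferine replicate 3 was not among the libraries that stood apart over all transcripts, and its Cd68 and Cd14, 3.28 and 2.48 times the Control mean, lay within the range of the other neferine libraries, while its Mrc1 was at 0.311 of the Control mean. Each member is 1 transcript of its gene, so a shift of signal to another transcript of Mrc1 was not tested.

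The ratio of Lyz2 to Cd14 had no such extremes among the libraries with a Cd14 value above 0. It could not be formed in AngII replicate 6, where Cd14 was listed at 0 and Lyz2 was at 405, so that library parts this pair too. Its median was 25.02 in Control, 22.6 in the 5 AngII libraries with a Cd14 value above 0, and 23.1 with neferine, and the ranges of the 3 groups overlapped, at 18.5 to 29.4, 18.6 to 34.2 and 18.7 to 33.8. The ratio of Cd68 to Cd14 had medians of 1.26, 1.61 and 1.62 in the same order, with overlapping ranges of 1.20 to 1.55, 1.29 to 2.61 and 0.760 to 1.84. No test was made on these ratios.

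**Figure D4:**
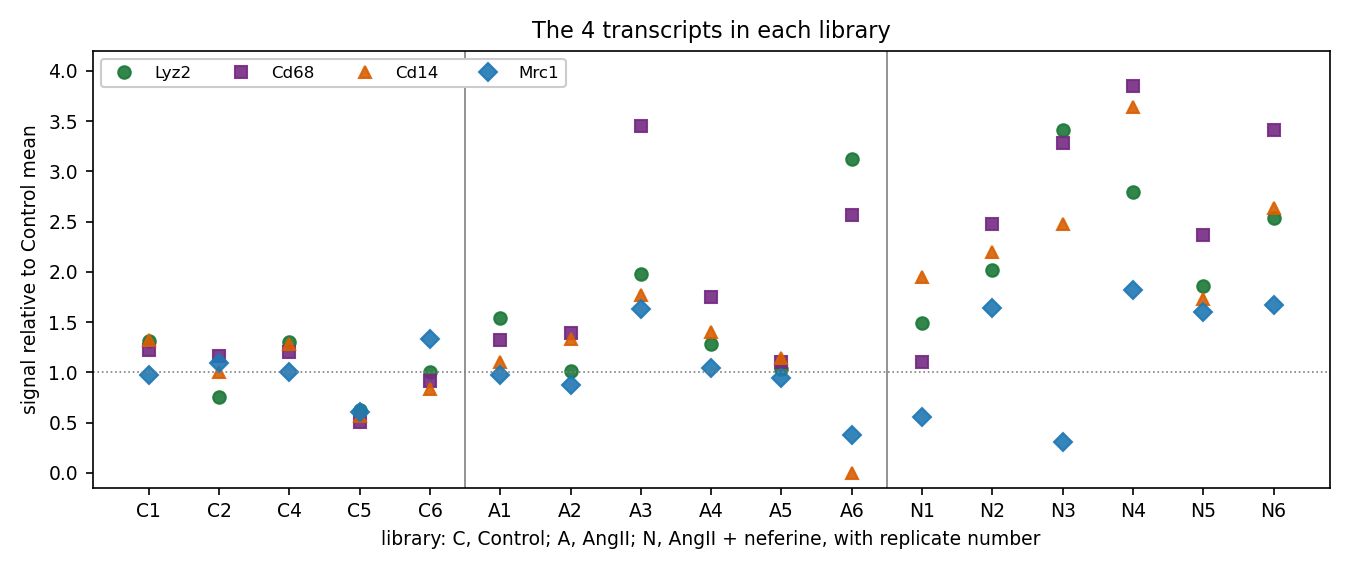
Signal of each transcript relative to its Control mean (vertical axis, linear; dotted line at 1) in every library, Control (C), AngII (A) and AngII with neferine (N), with the replicate number. Lyz2, Cd68 and Cd14 are above 1 in all neferine libraries, and Mrc1 is at 0.555 and 0.311 in neferine replicates 1 and 3 and at 0.375 in AngII replicate 6.

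The transcripts whose pattern over the 17 libraries was most like the mean of the 4 standardized log2 signals were ENSMUST00000000299 (r = 0.934) and ENSMUST00000042081 (r = 0.929), and those most opposed were ENSMUST00000124210 (r = -0.804) and ENSMUST00000054450 (r = -0.802). ENSMUST00000000299 lay between 2.26 and 4.55 in Control, 2.83 and 9.41 in AngII and 3.04 and 17.6 with neferine, with overlap between all groups. ENSMUST00000124210 lay between 0.807 and 1.60 in Control, 0.438 and 1.20 in AngII and 0.0407 and 1.03 with neferine. The files do not pair these identifiers with gene names, and the correlations are the extremes of 29979 and carry no test.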

How the data were processed

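The deposited files hold 1 signal column per sample, an abundance per transcript made by the authors on a scale that, per the file headers, is not named. It is not a count, and totals differ between libraries. Per the labels' protocols, rRNA was depleted from total RNA before library preparation. The submitters' processing notes name limma, without version or role. Aligner, quantification tool and genome build: not given in the sources used here. Symbols of the members were supplied with their identifiers; the files pair none.

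The signal as deposited was put on a log2(value + 1) scale and fitted by limma 3.58.1 under R 4.3.3 (trended, robust empirical Bayes), all 17 samples in 1 fit with a term per group. The fit kept 29983 transcripts that reached 1 in 5 or more libraries, and p-values were adjusted over all of them (Benjamini-Hochberg, called under 0.05). The design had provided limma for normalized or signal values. Two-sided exact permutation tests used the group means of the same log2 values. The fit was tested on simulated data. The members and lists were chosen with earlier results of these data known. The rule named all members and the most similar and most opposed transcripts. The planned lists of other macrophage genes and cell type markers, and the sequences, were not used here, since no table pairs them with the transcripts. Alternatives changed pseudocount, filter, scaling, samples, test and pairing.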

Additional observations from a re-analysis of the deposited data

How the results depend on the processing

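Over 31 or 32 alternatives per comparison, the differences of Lyz2 and Cd68 between all groups and those of Cd14 from neferine to AngII and to Control kept their direction. Many of these alternatives could not change a direction. Those that altered only the filter, the estimate of the spread, the test or the libraries of the group not compared left the difference itself unchanged. The call for neferine against Control was gained by Lyz2 with library weights (1.29; limma, adjusted p = 0.0492) and, with neferine replicate 1 and AngII replicates 2 and 6 removed, by Lyz2 (1.35), Cd68 (1.52) and Cd14 (1.20). With those libraries left out and median-of-ratios scaling, a setting chosen after seeing the data, Lyz2 passed at 1.39. AngII against Control changed sign for Cd14, to 0.31 with library weights, 0.40 without the 3 libraries and 0.42 with the added scaling, and for Mrc1, to 0.11, 0.19 and 0.21. Leaving out single libraries gave -0.27 to 0.40 for Cd14 and -0.27 to 0.13 for Mrc1 there, and -0.0295 to 0.45 for Mrc1 between neferine and Control; the cause was not tested.

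Transcripts called over the whole table varied more. AngII against Control gave 0, and 1 with the stricter filter, 7 with only the 2 groups or with all rows of their files, 6 with library weights, 4 without the 3 libraries, and 0 to 12 leaving out 1 library. Neferine against AngII gave 0, and 2 with only the 2 groups, 3 with weights, 13 without the 3 libraries, 8 with the added scaling, and 0 to 12 leaving out 1. Neferine against Control gave 11 (10 higher, 1 lower), and 4 without a filter, 2 with equal totals (1 higher, 1 lower), 26 with only the 2 groups, 63 with weights, 0 by exact permutation, 110 without the 3 libraries (76 higher, 34 lower), 101 with the added scaling, and 0 to 35 leaving out 1. AngII replicate 6 gave the upper ends, 12, 12 and 35. A call by the exact permutation test needs very many transcripts at its smallest p of 0.00216, so its 0 says little.

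Same-numbered samples showed no shared deviation: the correlations of their deviations from the group means lay between -0.147 and 0.0641 in 16 pairs. This cannot show whether the samples were paired. With the replicate number as a block, 0 transcripts were called between neferine and Control, and for that comparison Lyz2 was at 1.14 (limma, adjusted p = 0.285). The unknown depth limits what can be said of values near 0.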

Other observations

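Control replicate 5 had the lowest Lyz2, Cd68, Cd14 and Mrc1 values of its group, at 0.623, 0.507, 0.565 and 0.601 of the Control means. AngII replicate 3 had the highest Cd68, Cd14 and Mrc1 values of the AngII group, at 3.45, 1.77 and 1.63 times the Control means, and its Lyz2 was at 1.98 times. Of the 12 sets of values by transcript and group, 0 had a library past the 95% limit of Dixon's test on the linear signal. The test was not made on the log2(value + 1) scale used for the fits, where a value of 0 lies farther from the rest. The nearest to it was Cd14 in AngII, where replicate 6 was listed at 0 and its gap to the next library made up 0.621 of the range, just under that limit. Neferine replicate 1 had the lowest Lyz2 and Cd68 values of its group, 1.49 and 1.11 times the Control means, with Cd14 at 1.95 times.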
